A study of Drosophila melanogaster with 8 samples.

Results

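The regions described here are the HP1 domains of intermediate length on the X chromosome of Drosophila melanogaster ovaries. They were chosen as the domains on X that are 1000 to 9500 bp long and start below 20400000, which keeps the telomeric and middle parts of the arm and leaves out the end next to the centromere. The rule found 717 such domains among the 1084 listed on X and the 4467 listed in all. The domain list is 1 list for the whole DamID experiment, which compared Dam-HP1 ovaries (2 samples, the F1 of hsp70-FLP and STOP#1-Dam-HP1 flies) with Dam ovaries (2 samples, the F1 of hsp70-FLP and STOP#1-Dam flies). All females were 0 to 4 days old, and each DNA sample came from 160 to 200 whole ovaries after 16 PCR cycles. In both crosses the FLP recombinase is named for the hsp70 promoter; which ovary cells carried the Dam protein is not given in the labels, and no expression marker can be read from these DNA samples.

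HP1a is a chromatin protein that binds histone H3 methylated at lysine 9. It is best known from the heterochromatin around centromeres, at telomeres and on the small dot chromosome, where it helps to keep chromatin compact and transposons silent, and it also binds places within the gene-rich arms. In DamID a bacterial adenine methylase, Dam, is fused to the protein of interest and marks GATC sites near its binding places, and free Dam shows how open each site is without the fused protein. Positions are resolved no more finely than the spacing of GATC sites allows.

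Every start and end listed on X, 2L, 3L and 3R fell on a multiple of 500 bp, so lengths and gaps move in steps of 500 bp. The list carries no score and no value per sample, so how strongly HP1 bound a domain and how far the 2 replicates differed cannot be read from it. Differences between arms therefore stand beside 95% intervals that cover counting error only and treat domains as independent; they are descriptions, with no test between samples. For a like comparison, each other arm was cut to a window of 20400000 bp from its telomeric end, which lies at the low coordinates of X, 2L and 3L and at the high coordinates of 3R. On X, 2L and 3L the window began at position 1. On 3R it was counted down from the end of the last listed domain, at 27892500, rather than from the end of the arm.

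The mid-length domains were more closely packed on X than on 2L, 3L or 3R. The X window held 717 of them, or 35.1 per Mb (exact Poisson interval 32.6 to 37.8). The window of 2L held 546, or 26.8 per Mb (24.6 to 29.1), that of 3L held 604, or 29.6 per Mb (27.3 to 32.1), and that of 3R held 507, or 24.9 per Mb (22.7 to 27.1). The interval of X overlapped none of the other 3. These intervals assume independent domains, yet counts per 1 Mb bin varied more than that on X, 2L and 3L. Their variance was 2.09, 1.94 and 2.21 times the mean, so the density and ratio intervals are too narrow there. Against the 3 arms pooled, with 27.1 domains per Mb, the density on X was 1.30-fold (exact interval 1.19 to 1.42). The density on X was 1.41-fold that of 3R (1.26 to 1.59), 1.31-fold that of 2L (1.17 to 1.47) and 1.19-fold that of 3L (1.06 to 1.33). In the list as deposited 3L was thus the arm nearest to X. That order depended on how finely domains were split. With gaps of up to 1000 bp closed, 2L stood at 23.9 per Mb, 3L at 23.3 and 3R at 23.0, against 31.6 on X.

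**Figure D1:**
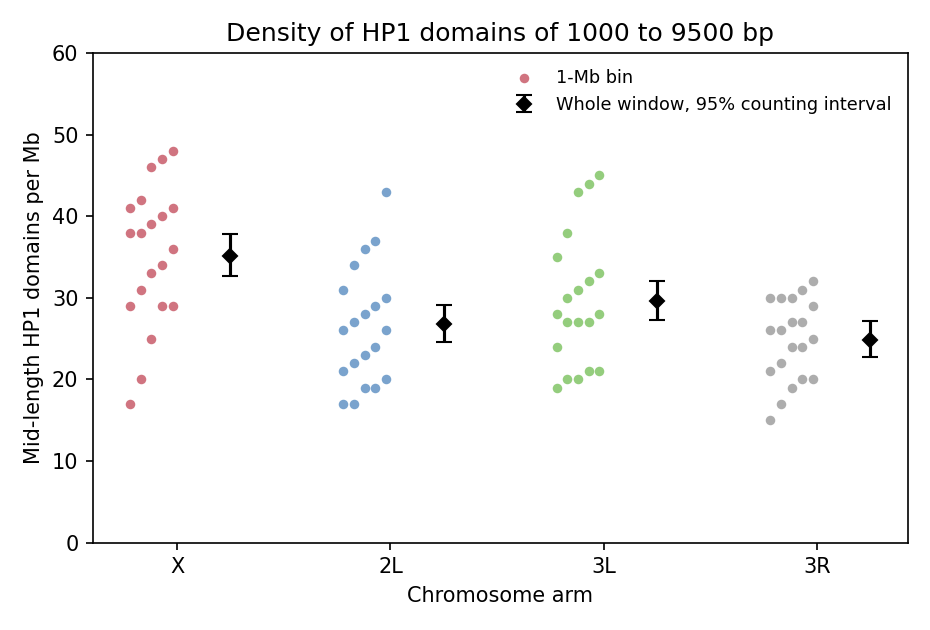
Mid-length HP1 domains per Mb (vertical axis) on 4 chromosome arms. Coloured points are single bins of 1 Mb, 20 per arm, and black diamonds are whole windows of 20400000 bp with 95% exact Poisson intervals; X stands at 35.1 per Mb and the other arms at 24.9 to 29.6.

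The domains of X also covered more of their arm. Together they spanned 2.14 Mb, which is 10.5% of the X window, against 7.68% on 2L, 9.40% on 3L and 7.54% on 3R. Their mean length lay within the range of the other arms, at 2984 bp (SD 2010 over 717 domains) on X, against 2871 bp on 2L, 3175 bp on 3L and 3033 bp on 3R. The greater cover on X thus went with a larger number of domains of like length.

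The median length was 2500 bp on X and on each other arm, with an order-statistic interval of 2000 to 2500 bp on X. The middle part of the X domains, between the lower and upper quartile, ran from 1500 to 4000 bp, as on 3L and 3R, while on 2L it ran from 1500 to 3500 bp. Short members were the most frequent: 129 of the 717 were 1000 bp long, 108 were 1500 bp and 106 were 2000 bp. Lengths of up to 2000 bp made up 47.8% of the X domains (exact binomial interval 44.1 to 51.6%), against 48.2% on 2L, 43.7% on 3L and 46.5% on 3R. Lengths of 5000 bp or more made up 16.0% on X (13.4 to 18.9%), against 14.7% on 2L, 20.5% on 3L and 19.7% on 3R.

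When each length was counted per Mb, X stood above each other arm among the domains of up to 2000 bp, and not above 3L among those of 5000 bp or more. Domains of 1000 to 2000 bp numbered 16.8 per Mb on X and 12.5 per Mb on the 3 arms pooled, a ratio of 1.35 (1.18 to 1.53), and the ratio to each single arm lay between 1.30 and 1.45. Those of 2500 to 4500 bp numbered 12.7 per Mb on X and 9.64 per Mb on the pooled arms, a ratio of 1.32 (1.13 to 1.53). By single arm the ratio was 1.28 to 2L (1.06 to 1.54), 1.20 to 3L (0.997 to 1.44) and 1.51 to 3R (1.24 to 1.85). The interval for 3L includes no difference. Those of 5000 to 9500 bp numbered 5.64 per Mb on X and 4.97 per Mb on the pooled arms, a ratio of 1.13 whose interval of 0.908 to 1.41 includes no difference. In that longest group X stood at 0.927-fold the density of 3L (0.713 to 1.21) and at 1.44-fold that of 2L (1.07 to 1.94), so the arms did not line up one way. Whether the ratio itself differs between the 3 length groups was not tested, and their intervals overlap.

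**Figure D2:**
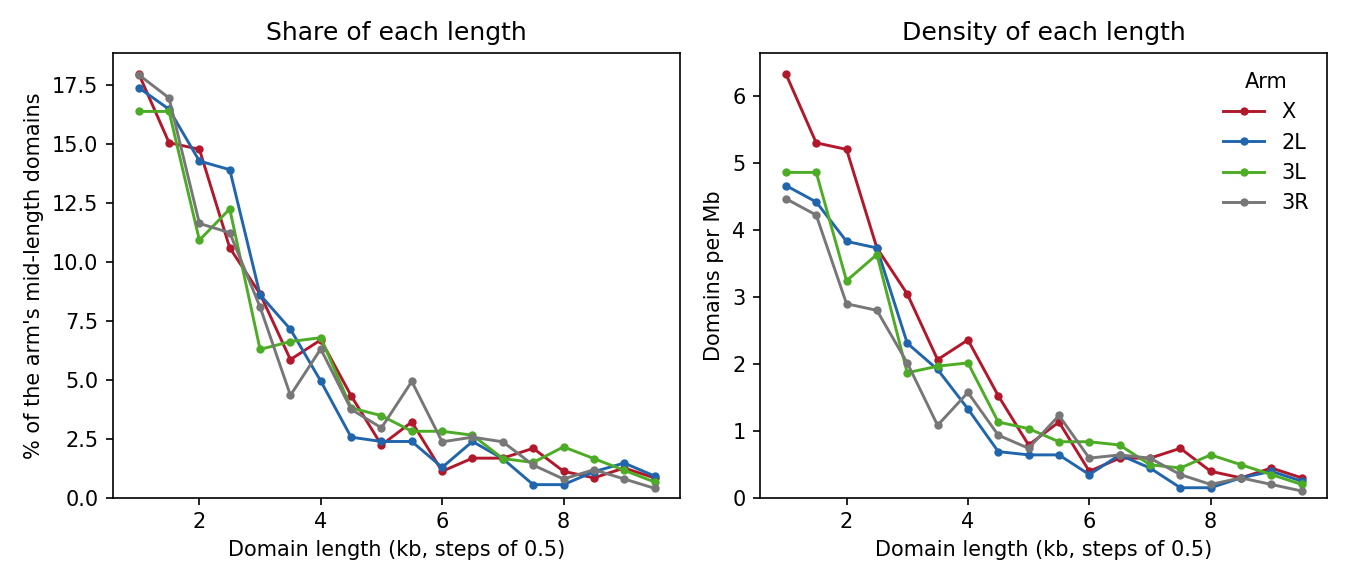
Lengths of mid-length HP1 domains in kb (horizontal axes, steps of 0.5 kb) on 4 arms, as a percentage of the arm's mid-length domains (left) and as domains per Mb (right). At 1 kb the shares were 16.4 to 18.0% on each arm, and at 2 kb they ran from 10.9% on 3L to 14.8% on X; the density at 1 kb was 6.32 per Mb on X and 4.46 to 4.85 per Mb on the other arms.

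The limits of the rule cut through a continuous range of lengths. Within the X window, 189 domains of 500 bp lay just outside the lower limit and 129 of 1000 bp just inside it, while 6 domains of 9500 bp lay just inside the upper limit and 3 of 10000 bp just outside. The longest domain of the window measured 43500 bp. The last member before the start limit was a domain of 1000 bp at chrX:20379501-20380500 (dm3, counted from 1), and the next domain of such length, 2000 bp long, began at chrX:20477001. The first member from the telomere lay at chrX:20501-23000.

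Mid-length domains were the main form of HP1 domain along X. Of the 963 domains of any length in the window they made up 74.5% (exact binomial interval 71.6 to 77.2%), against 77.3% of 706 on 2L, 76.7% of 787 on 3L and 77.6% of 653 on 3R. They held 69.3% of all base pairs within HP1 domains of the X window, against 65.7% on 2L, 70.9% on 3L and 72.7% on 3R. The rest of the domain length on X lay mostly in 57 long domains of 10000 bp or more, with 27.7% of the base pairs, and the 189 domains of 500 bp held 3.06%. The higher density on X was not limited to the mid-length domains: domains of 500 bp stood at 9.26 per Mb on X and 5.90 per Mb on the 3 arms pooled (ratio 1.57, 1.31 to 1.88). Long domains stood at 2.79 per Mb on X and 2.09 per Mb on the pooled arms, a ratio of 1.34 whose interval of 0.960 to 1.84 includes no difference.

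**Figure D3:**
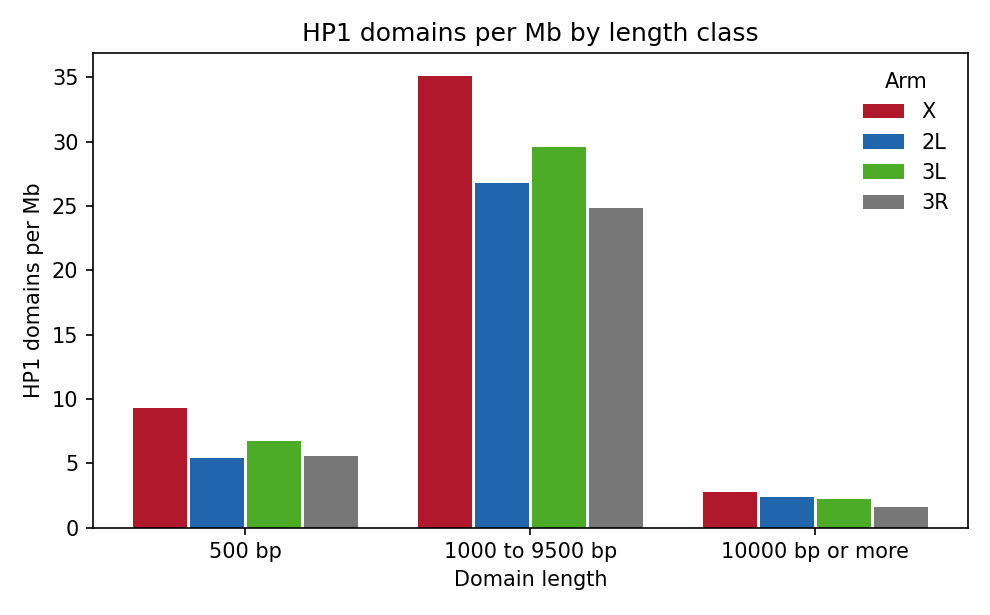
HP1 domains per Mb (vertical axis) in 3 length classes (horizontal axis) in windows of 20400000 bp on 4 arms. Bars start at 0 and are single counts over the window, without intervals. X is the highest in each class, at 9.26, 35.1 and 2.79 per Mb. For long domains the interval of the ratio to the other arms pooled, 0.960 to 1.84, includes no difference.

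Neighbouring mid-length domains lay nearer to each other on X. In windows of equal length more domains leave shorter gaps on average, so this is not a result separate from the density. The mean gap was 25.4 kb on X and 33.9 kb on the other arms pooled. Neither gaps, wide gaps nor distances to the nearest domain were adjusted for density. The median gap from the end of 1 mid-length domain to the start of the next was 14 kb on X (order-statistic interval 12 to 16 kb, 716 gaps), against 21.5 kb on 2L (19.5 to 25 kb), 16.5 kb on 3L (14.5 to 20 kb) and 22.5 kb on 3R (18.5 to 27 kb). The interval of X overlapped that of 3L and neither of the others. The middle part of the X gaps, between the quartiles, ran from 5.5 to 35.1 kb, against 8 to 45 kb on 2L, 5.5 to 39 kb on 3L and 8.5 to 51.4 kb on 3R. X and 3L thus shared the lower quartile, and X had the lowest upper quartile. Gaps to a neighbour of any length were shorter still, with a median of 9 kb on X, 15 kb on 2L, 10.5 kb on 3L and 15 kb on 3R.

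Wide stretches free of mid-length domains were fewest on X, but the interval of their share was clear of that of 3R only. Gaps of 100 kb or more numbered 24 on X, or 3.35% of its gaps (exact binomial interval 2.16 to 4.95%). There were 37 on 2L (6.79%, 4.82 to 9.24%), 29 on 3L (4.81%, 3.24 to 6.83%) and 42 on 3R (8.30%, 6.05 to 11.1%). The interval of X overlapped those of 2L and 3L. They took up 16.4% of the X window, against 25.8% on 2L, 21.8% on 3L and 28.8% on 3R. The widest gap on X, chrX:712501-1035500, was 323 kb long and held 3 domains of 500 bp, 2 of them near its telomeric edge at chrX:721501-722000 and chrX:727501-728000 and 1 near the other edge at chrX:1006001-1006500. It was wider than the widest on 2L (271.5 kb) and 3R (260.5 kb) and narrower than that on 3L (434 kb).

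**Figure D4:**
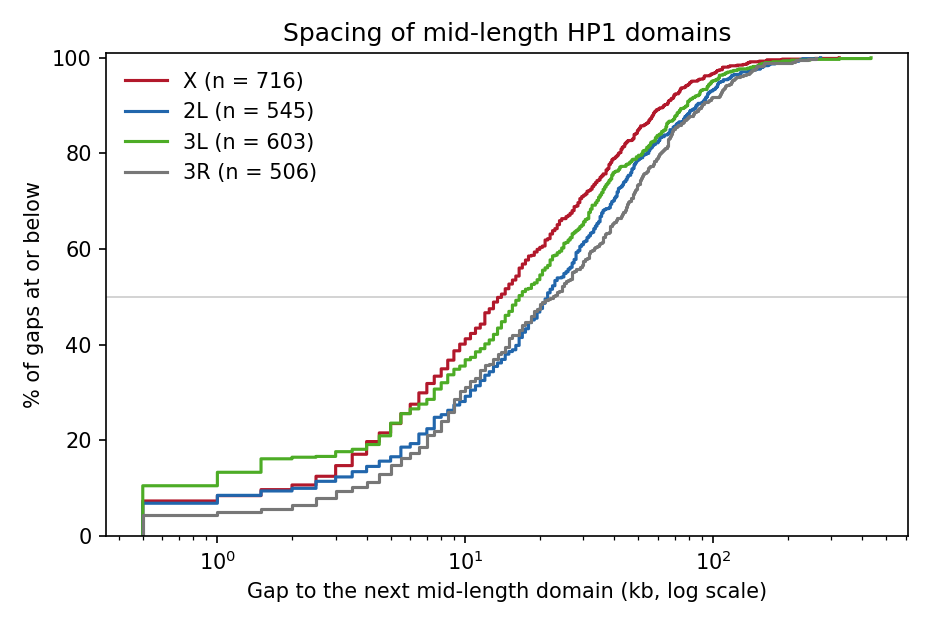
Cumulative percentage of gaps (vertical axis) by gap length in kb (horizontal axis, log scale) between successive mid-length HP1 domains on 4 arms. The X curve crosses 50% at 14 kb and the others at 16.5 to 22.5 kb, while 3L has the highest share of gaps of 500 bp, 10.4% against 7.26% on X.

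At the short end of the scale X did not stand above 3L in the share of its gaps. Gaps of up to 5 kb made up 23.5% of the X gaps, or 168 of 716, against 16.5% on 2L, 23.5% on 3L and 14.8% on 3R. Counted per Mb, these gaps numbered 8.24 on X, 4.41 on 2L, 6.96 on 3L and 3.68 on 3R. Gaps of 500 bp, a single step, were 7.26% on X (5.47 to 9.42%) and 10.4% on 3L (8.12 to 13.2%). Gaps of 3000 to 5000 bp were 11.0% on X (8.83 to 13.6%) and 6.97% on 3L (5.07 to 9.30%). In both classes the intervals of X and 3L overlapped. On 2L the gaps of 3000 to 5000 bp were 5.14% and on 3R 6.92%. This class of gaps was chosen after the values were seen.

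Successive mid-length domains with gaps of at most 5 kb were joined into clusters. On X, 277 of the 717 domains (38.6%, exact binomial interval 35.1 to 42.3%) stood in 109 clusters and 440 stood alone. The share in clusters was 28.4% on 2L, 41.2% on 3L and 27.4% on 3R, so at this distance X was close to 3L and above the other arms. That order depended on the distance: joined at 2000 bp, 19.0% of the domains stood in clusters on X (16.2 to 22.0%), against 17.4% on 2L (14.3 to 20.8%), 28.8% on 3L (25.2 to 32.6%) and 12.6% on 3R (9.86 to 15.8%), and joined at 10000 bp the shares were 64.0% on X, 48.7% on 2L, 59.1% on 3L and 50.9% on 3R. Most clusters on X were pairs, 73 of the 109, and 14 held 4 or more domains, against 5 on 2L, 7 on 3L and 1 on 3R. Joined at 2000 bp, clusters of 4 or more numbered 2 on X, 3 on 2L, 5 on 3L and 0 on 3R. These shares were not adjusted for the density of domains, which also differed between the arms.

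The largest X clusters held 6 domains each. The first, at chrX:14970001-15006000, spanned 36 kb, and its members measured 4500, 1000, 1500, 1000, 4000 and 9000 bp. The second, at chrX:18032001-18060000, spanned 28 kb, with members of 3000, 8000, 2000, 1500, 2000 and 1000 bp. Among the clusters of 5, the one nearest the telomere lay at chrX:1476501-1490500 and spanned 14 kb, with members of 1500, 1000, 1500, 4500 and 1000 bp. Each of the 3 clusters held members of 1000 and 1500 bp as well as at least 1 of 4500 bp or more.

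The longest members reached the upper limit of 9500 bp. The first 5 of these from the telomere lay at chrX:6469501-6479000, chrX:9074501-9084000, chrX:11197501-11207000, chrX:13060501-13070000 and chrX:15729501-15739000. Their nearest domain of any length stood 3, 0.5, 4, 6.5 and 12.5 kb away, in that order, so the second of them was parted from its neighbour by 1 step only.

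The length of a mid-length domain went with neither the gap that followed it nor the length of the next one. Across 716 successive pairs on X, which share an arm and a list, Spearman's rho was 0.01 for length and following gap (Pearson's r = -0.01) and 0.02 for the lengths of neighbours. On the other arms rho for neighbours' lengths was 0.12 (2L), 0.09 (3L) and 0.05 (3R). These values are weak and are given as a description.

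The nearest domain to a mid-length member on X was mid-length in 520 of 717 cases (72.5%), 500 bp long in 155 (21.6%) and long in 42 (5.86%). These shares lay near those of the 3 classes among all X domains, which were 74.5%, 19.6% and 5.92%. The median distance to the nearest domain was 5 kb on X, against 8 kb on 2L, 5.5 kb on 3L and 8.5 kb on 3R. The nearest domain was 500 bp away in 139 of 717 cases on X, 87 of 546 on 2L, 169 of 604 on 3L and 64 of 507 on 3R.

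Along the arm, mid-length domains were present in every bin of 1 Mb on X, between 17 and 48 in each, with a median of 37. The medians of the other arms were 26 (2L), 28 (3L) and 25.5 (3R). Of the 20 bins on X, 14 held 30 or more domains, against 6 on 2L, 9 on 3L and 5 on 3R, and 7 held 40 or more, against 1, 3 and 0. The emptiest bin on X, chrX:7000001-8000000, held 17 mid-length domains of 27 of any length, and the fullest, chrX:11000001-12000000, held 48 of 61. The variance of the bin counts was 2.09 times their mean on X, 1.94 times on 2L, 2.21 times on 3L and 0.982 times on 3R, so the domains of X were about as unevenly spread as those of 2L and 3L.

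Split into 4 stretches of 5.1 Mb each, X had the highest density of the 4 arms in every stretch. From the telomeric to the centromeric side it held 31.8, 36.1, 37.8 and 34.9 domains per Mb, and the intervals of these 4 values overlapped. The other arms ran from 22.0 to 23.3 per Mb in the telomeric stretch, from 23.7 to 31.8 in the second, from 25.5 to 32.4 in the third and from 26.9 to 31.4 in the centromeric one. The interval of X (27.1 to 37.1 per Mb) overlapped those of 3L and 3R in the telomeric stretch and not that of 2L. In the second stretch it overlapped those of 2L and 3L, in the third that of 3L, and in the centromeric one those of all 3 arms. The median gap on X was 15, 13.5, 13.8 and 13.5 kb from the telomeric to the centromeric stretch, so the spacing was much the same along the window.

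**Figure D5:**
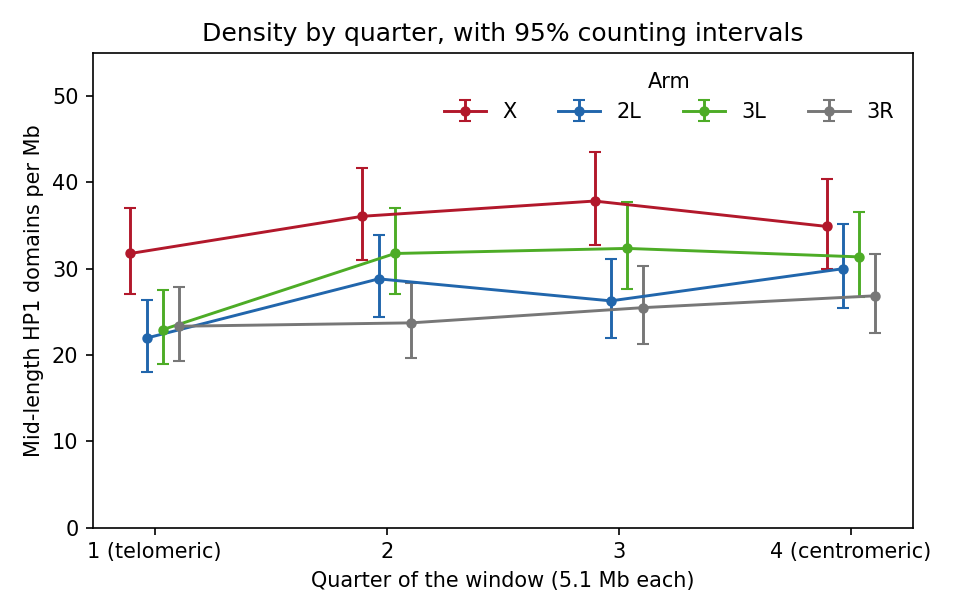
Mid-length HP1 domains per Mb (vertical axis) in 4 stretches of 5.1 Mb from the telomeric to the centromeric side of each window (horizontal axis) on 4 arms, with 95% exact Poisson intervals. X lies between 31.8 and 37.8 per Mb and above the other arms in each stretch. Its interval overlaps that of 3L in each stretch, that of 2L in the second and the centromeric one, and that of 3R in the telomeric and the centromeric one.

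Joining domains parted by 1 step set X further apart from 3L. With gaps of up to 500 bp closed before the length limits were applied, X held 660 mid-length domains (32.4 per Mb) and 3L held 503 (24.7 per Mb), and the median gaps were 16 kb on X and 22.5 kb on 3L. On 2L there were then 496 domains (24.3 per Mb) and on 3R 477 (23.4 per Mb). In the list as deposited, gaps of 500 bp made up 12.4% of all gaps between domains of any length on X, 9.79% on 2L, 17.7% on 3L and 6.75% on 3R.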

How the data were processed

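DamID samples of Dam-HP1 and Dam ovaries (2 each) were used; the 4 RNA-seq samples were not, because no gene annotation of the build of the domain list was used here. Per the submitters' processing notes, Bowtie2 and HTSeq were applied to the DamID reads, with dm3 and BDGP5 as builds; versions and roles are not stated. The deposited list holds start and end positions of domains, which per the file header come from a hidden Markov model. How the authors set the model and pooled the replicates is not given in the sources used here. Depth per sample cannot be read from the list. Positions are printed counted from 1, in dm3.

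Lengths, gaps, densities and clusters were computed in Python 3.11.15 with NumPy 2.4.6 and SciPy 1.17.1, and the functions were tested on simulated data. Intervals at 95% are exact Poisson (densities), exact conditional (ratios), exact binomial (shares) and order-statistic (medians), and cover counting error only. Since the list is pooled, no test between groups was made. Domains listed outside X, 2L, 3L and 3R (748) were not used. Named regions are the 5 longest members, the 3 largest clusters (ties by lower start), the widest gap, the fullest and emptiest bin and the members next to each limit. The members and comparisons were chosen with earlier results of these data known. Alternatives were other windows, length limits, joining distances, cluster distances and bin widths.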

Additional observations from a re-analysis of the deposited data

How the results depend on the processing

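The higher density on X held its direction under all 7 alternatives, with a log2 ratio of X to the other arms of 0.35 (whole listed arms) to 0.43 (domains joined over gaps of up to 1000 bp), against 0.38 as reported. Other windows (whole arms, arms without 2 Mb at the centromeric end, 15 Mb from the telomere) left the density, median length, median gap and share of mid-length domains on X within the intervals reported, as did bins of 500000 and 2000000 bp for the median bin. Values moved where the construction changes which domains count. With lengths of 1500 to 9500 bp the X window held 28.8 domains per Mb, with a median length of 3000 bp, a median gap of 17 kb and a share of 61.1% of all domains. With lengths of 1000 to 5000 bp the values were 30.3 per Mb, 17.5 kb and 64.2%. Joining over gaps of up to 500 bp gave 32.4 per Mb and 78.2%, and joining over up to 1000 bp gave 31.6 per Mb, 16.5 kb and 79.1%. Members in clusters made up 19.0% when joined at 2000 bp and 64.0% at 10000 bp. No paired analysis was possible because the list pools the samples and no result comes from a test; for the same reason no replicate could be left out.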

Other observations

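Beyond the start limit, the 2.02 Mb of X next to the centromere held 76 domains of 1000 to 9500 bp, or 37.6 per Mb (exact Poisson interval 29.6 to 47.0), against 35.1 per Mb in the window. Their median length was 2500 bp, as in the window, and their median gap 11 kb, against 14 kb in the window. By density the mid-length domains thus showed no step at the limit that these counts could resolve. Their lengths were held to the same limits on both sides, so the equal medians say little. Domains of other lengths are not covered by this comparison. All of X listed 1084 domains, 793 of them mid-length, and the window held 963, 717 of them mid-length.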
